A study of Sus scrofa with 48 samples.

Results

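The identity of B cells in the whole blood of pigs was described through 9 genes, namely CD79A, CD79B, MS4A1, FCRLA, VPREB3, BLNK, SPIB, PAX5 and POU2AF1. They were found on the array by the gene name of the scanner files, in upper case, among the spots that the authors retained. That name gave 12 spots of 7 genes out of 37113 retained spots. SPIB, PAX5 and a second VPREB3 spot are listed there under other names and were named here through a RefSeq table, so that 15 spots of all 9 genes were described. All 15 spots were well above background on 48 of 48 arrays. The pigs were purebred French Large White castrated males of 2 lines selected in opposite directions for residual feed intake (RFI), the part of feed intake that growth and maintenance do not account for. Low RFI pigs (RFIneg) and high RFI pigs (RFIpl) had free access to a high-fat, high-fiber (HF) or a low-fat, low-fiber (LF) diet, which made 4 groups of 12 pigs, low RFI HF, low RFI LF, high RFI HF and high RFI LF. Every pig was bled at slaughter at 132 days of age, and its RNA was labelled and hybridized to 1 single-colour array. No group was an unselected control, so that a difference between the lines cannot be assigned to either of them.

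B cells bind antigen with a membrane immunoglobulin. It signals through a pair of partner chains, CD79A and CD79B, whose tails carry an activation motif that is phosphorylated on tyrosines. The adaptor BLNK links the activated receptor to its downstream enzymes. The transcription factor PAX5 commits lymphoid precursors to the B lineage, and SPIB and the coactivator POU2AF1 sustain the receptor program in mature cells. In whole blood these transcripts come mostly from circulating B cells, a minor fraction beside red cells, neutrophils and T cells. A level in such a bulk sample is relative to the RNA of all its cells. A lower one can reflect fewer B cells, less RNA per B cell or more RNA from other cells, and the arrays cannot tell these apart. The paper's blood counts gave the low line more red cells and showed no line effect on lymphocytes, which were not split into B cells and others. Whether these counts bear on the B cell genes was not tested.

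The probes are 60 bases long. Those below were chosen because each has a reading frame without a stop codon, and because they belong to the genes on which the results turn. In the CD79A sequence the capitals mark 2 tyrosine codons, at bases 16 and 49, with the spacing of the activation motif.
CD79A (A_72_P070401): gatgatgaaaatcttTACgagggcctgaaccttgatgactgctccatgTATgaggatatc
MS4A1 (A_72_P240222): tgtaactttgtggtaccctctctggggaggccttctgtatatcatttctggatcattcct
BLNK (A_72_P025221): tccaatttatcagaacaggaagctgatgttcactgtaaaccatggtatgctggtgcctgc
FCRLA (A_72_P184931): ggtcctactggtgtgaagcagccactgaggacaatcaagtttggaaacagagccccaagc
PAX5 (A_72_P710009): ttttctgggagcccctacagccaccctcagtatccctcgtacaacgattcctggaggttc

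The motif was searched on the printed strand as a tyrosine codon, 2 further codons and a leucine or isoleucine codon, followed after 6 to 8 codons by the same run again, in a frame without a stop codon. It was found in 0.0813% of the 35677 different retained sequences of 60 bases, and in no other probe of the 9 genes. BLNK and FCRLA have 3 probes each, CD79A and VPREB3 have 2, and the other 5 genes have 1. The probes of a gene were not always independent. Both VPREB3 probes have the same 60 bases, as have the FCRLA probes A_72_P001051 and A_72_P509495, and the BLNK probes A_72_P489950 and A_72_P682918 share a run of 53 bases.

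Values are log2 intensities with the median of the array set to 0, and the value of a gene is the mean of its probes. A difference is the mean of low RFI pigs minus that of high RFI pigs on this log2 scale, and fold change (FC) is its size on the linear scale. The median intensity over the local background ranged from 5.91 to 16.0 between arrays, with group medians of 10.5 to 11.2, and in the deposited values 1 pig, replicate 1 of the high RFI HF group, has a single repeated value in 37090 of 37113 entries, so that its values were rebuilt from its scanner file.

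MS4A1, FCRLA and BLNK, 3 of the 9 B cell identity genes, were underexpressed in low RFI pigs at an adjusted P-value under 0.05 in the limma fit, and none was overexpressed. Over all 26237 genes and unnamed features tested, 2.73% were called for line and 1.43% were called as lower in low RFI pigs. The estimates of 8 of the 9 genes were below 0, against 41.8% of all features, with PAX5 as the exception. These 8 genes varied together from pig to pig, as given below, so that their shared sign does not count as separate observations. The median difference of the 9 genes was -0.17, whereas that of all features was 0.02. MS4A1 and BLNK are among the genes that the study listed from these same pigs, so that their count is not independent evidence of a direction.

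MS4A1, the surface protein CD20, showed the lowest P-value of the 9 genes. Its values were 1.99 to 2.83 in the low RFI HF pigs with a median of 2.35, and 1.63 to 2.70 in the low RFI LF pigs with a median of 2.36. In high RFI pigs they were 2.37 to 3.35 with a median of 2.70 under the HF diet, and 2.36 to 2.94 with a median of 2.62 under the LF diet. The ranges of the lines overlapped, but 22 of 24 low RFI pigs lay under the median of the high RFI pigs, and 11 of them under the lowest high RFI pig. The mean was 2.33 ± 0.26 (SD, n = 24) in low RFI pigs and 2.69 ± 0.22 (SD, n = 24) in high RFI pigs. The difference was -0.36 ± 0.07 (SE; FC 1.28; limma adjusted P-value 0.00126). Low RFI pigs had the lower mean on 5 of 6 slides, each of which held 2 pigs of every group.

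FCRLA, an Fc receptor-like protein that stays inside B cells, was the next of the called genes by size of the estimate. It ranged from -0.32 to 0.97 with a median of 0.37 in low RFI HF pigs, and from -0.18 to 0.91 with a median of 0.24 in low RFI LF pigs. The high RFI HF pigs had values of 0.21 to 0.97 with a median of 0.66, and the high RFI LF pigs 0.03 to 0.81 with a median of 0.54. The groups overlapped widely at their upper ends, and 21 of 24 low RFI pigs lay under the high RFI median. The difference was -0.30 ± 0.08 (SE; FC 1.23; limma adjusted P-value 0.0260). Among its 3 probes, A_72_P001051 passed the adjusted threshold alone (adjusted P-value 0.0350). Its twin of identical sequence did not (0.0549), nor did the dim probe A_72_P184931 (0.0549), whose median signal was 4.98 times its local background. The 3 estimates lay between -0.34 and -0.24.

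BLNK, the adaptor of the receptor, had the estimate of the smallest size among the called genes. Its values in low RFI pigs were 1.60 to 2.67 with a median of 2.13 under the HF diet, and 1.85 to 2.60 with a median of 2.03 under the LF diet. In high RFI pigs they were 2.06 to 2.56 with a median of 2.24 under the HF diet, and 2.23 to 2.69 with a median of 2.45 under the LF diet. Under the LF diet 9 of the 12 low RFI pigs lay under the lowest high RFI pig, and under the HF diet 4 of 12 did. The difference was -0.23 ± 0.06 (SE; FC 1.17; limma adjusted P-value 0.0250), with a lower low RFI mean on 6 of 6 slides. Its 3 probes gave -0.24, -0.24 and -0.22, and of these A_72_P025221 alone, whose sequence is printed above, passed the threshold (adjusted P-value 0.00379). In all, 3 of the 15 probes were called, against 2.77% of the 37113 probes tested.

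By the uncorrected criterion of the methods, which asks for P below 0.01 and FC over 1.1, MS4A1, FCRLA and BLNK and 7 of the 15 probes passed for line, against 5.54% of all features and 5.78% of all probes. The calls of BLNK and FCRLA at the adjusted threshold depended on how a gene was summarised. With the brightest probe in place of the mean, their adjusted P-values were 0.106 and 0.0584 at differences of -0.24 and -0.30, and MS4A1 alone was called. With the faulty deposited values of that 1 high RFI HF pig left in place, they were 0.0911 and 0.185, and MS4A1 again was called alone (0.00979).

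**Figure D1:**
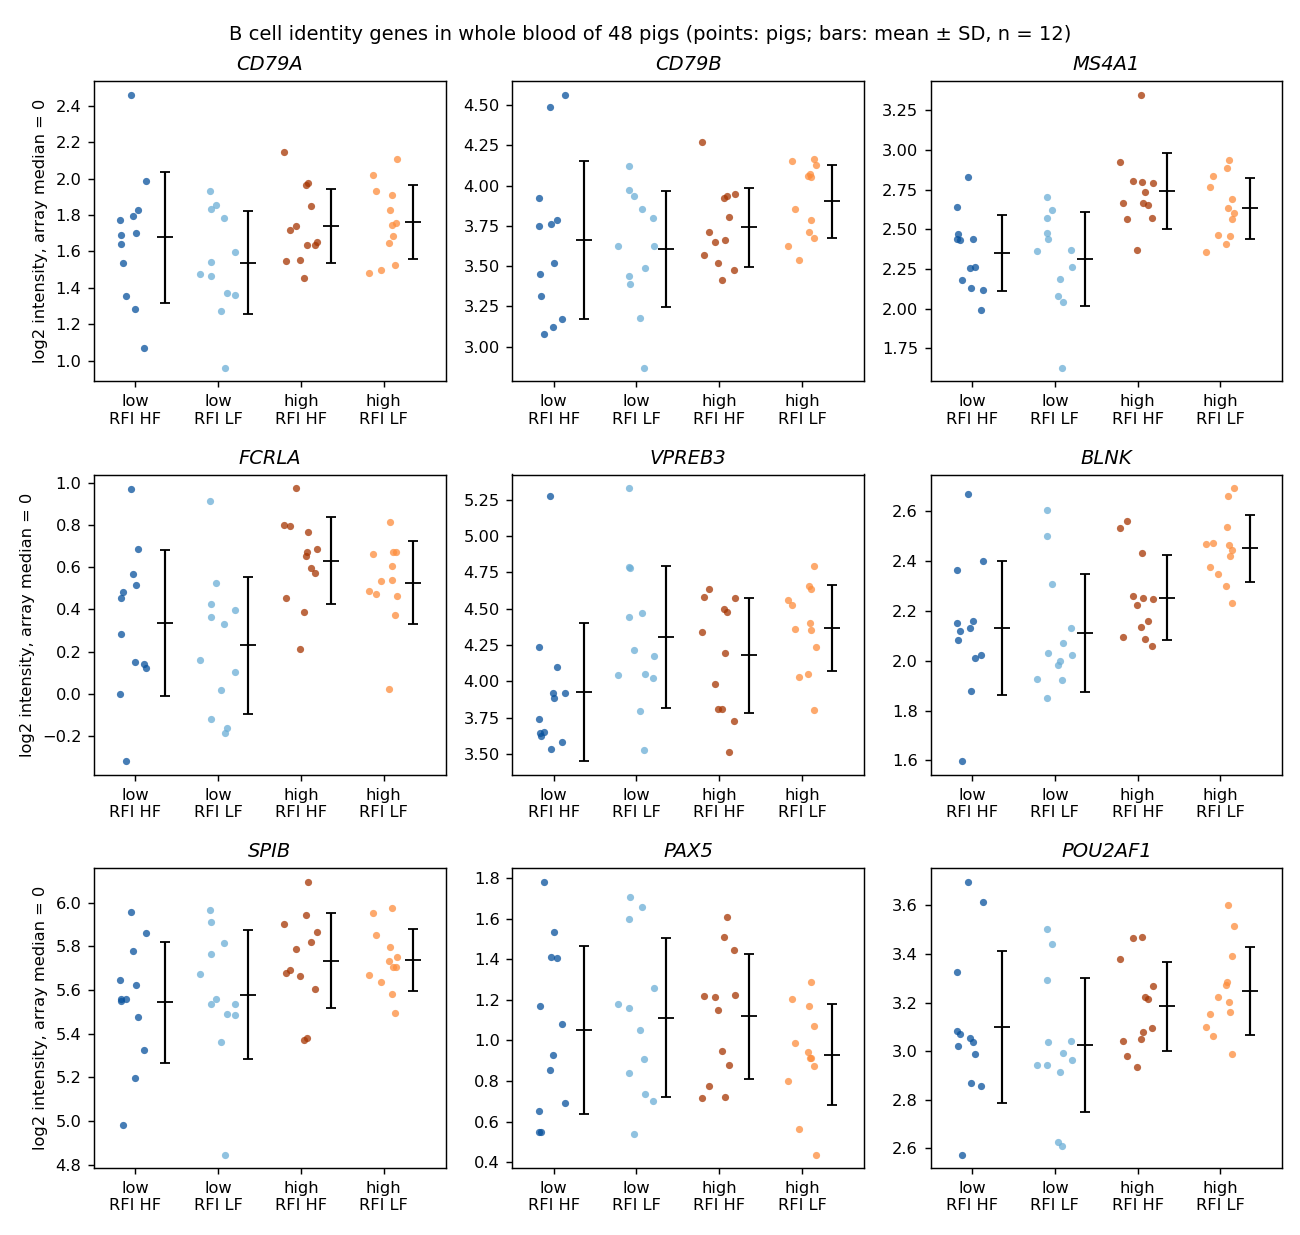
Log2 intensity, with the array median at 0, of the 9 B cell identity genes in the 48 pigs, by line and diet. Points are pigs and bars are means ± SD (n = 12). MS4A1 of low RFI pigs lies mostly under that of high RFI pigs, with medians of 2.36 and 2.67, while the PAX5 groups lie over each other.

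The partner chains of the receptor, CD79A and CD79B, had lower means in low RFI pigs but did not pass the test. CD79A ranged from 0.96 to 2.46 with a median of 1.62 in the 24 low RFI pigs, and from 1.46 to 2.15 with a median of 1.73 in the 24 high RFI pigs. CD79B ranged from 2.87 to 4.56 in the low line (median 3.62), and from 3.41 to 4.27 in the high line (median 3.80). In both genes the low RFI values reached further down and further up than those of the high RFI pigs. The difference was -0.14 ± 0.08 (SE; adjusted P-value 0.519) for CD79A and -0.19 ± 0.10 (SE; adjusted P-value 0.493) for CD79B, by limma. The 2 CD79A probes, which share no run longer than 5 bases, both gave -0.14.

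VPREB3, a protein of the endoplasmic reticulum that binds the chains of the receptor while it is assembled, spanned 3.53 to 5.33 in low RFI pigs (median 4.03) and 3.52 to 4.80 in high RFI pigs (median 4.36). Its difference of -0.16 ± 0.12 (SE) did not pass the test (limma adjusted P-value 0.776). It had the widest spread among pigs of the same group, at an SD of 0.42, and its within-slide differences ran from -0.50 to 0.33.

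Of the 3 transcriptional regulators none was called. SPIB, an ETS family factor also used by plasmacytoid dendritic cells, ranged from 4.85 to 5.96 in low RFI pigs (median 5.56) and from 5.37 to 6.10 in high RFI pigs (median 5.72). POU2AF1, the coactivator of the octamer-binding factors, ranged from 2.57 to 3.70 (median 3.03) and from 2.93 to 3.60 (median 3.21) in the same order. The differences were -0.17 ± 0.07 (SE; P-value 0.0151, adjusted P-value 0.217) for SPIB and -0.15 ± 0.07 (SE; P-value 0.0361, adjusted P-value 0.359) for POU2AF1, by limma. PAX5 ranged from 0.54 to 1.78 in low RFI pigs (median 1.07) and from 0.44 to 1.61 in high RFI pigs (median 0.97). Its difference was 0.06 ± 0.10 (SE; limma adjusted P-value 0.965), with an approximate 95% interval of -0.14 to 0.25, and its sign differed between slides, with a lower low RFI mean on 3 of 6.

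**Figure D2:**
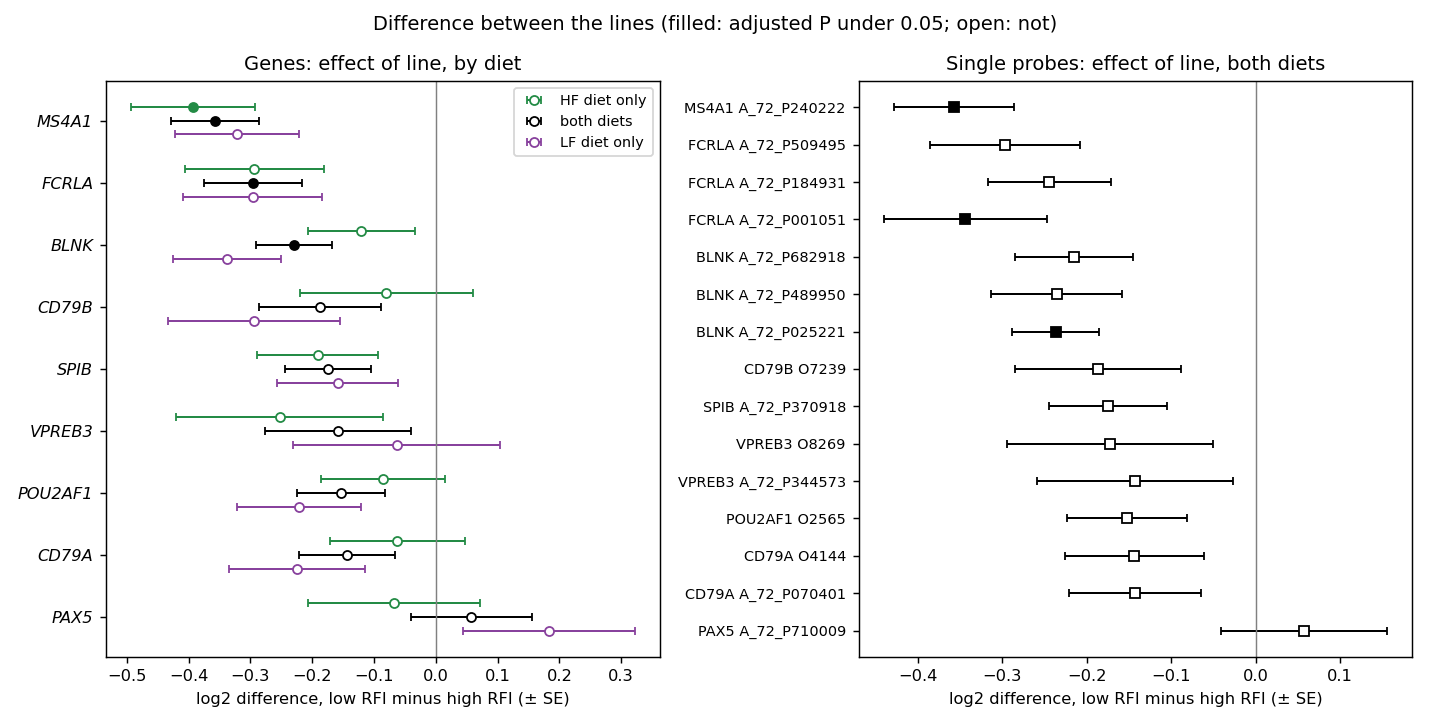
Log2 difference between low RFI and high RFI pigs (± SE) of the 9 genes under both diets and within each diet, and of their 15 probes under both diets. Filled symbols mark an adjusted P-value under 0.05, which under both diets holds for MS4A1, FCRLA and BLNK, and all estimates under both diets except that of PAX5 lie to the left of 0.

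Within each diet fewer genes passed. Under the HF diet MS4A1 alone was called, with a difference of -0.39 ± 0.10 (SE; limma adjusted P-value 0.0443), while 0.724% of all features were called. Of the 9 genes 2 had an unadjusted limma P-value under 0.05, against 8.36% of all features, and MS4A1 alone passed the criterion of the methods, against 3.28%. The adjusted call was lost with all non-control spots in the fit (adjusted P-value 0.0721) and with the faulty deposited values left in place (0.150). Under the LF diet no gene of the 9 passed, while 0.465% of all features did, and 6 of the 9 had an unadjusted limma P-value under 0.05, against 7.36% of all features. By the criterion of the methods 2 of the 9 passed, against 2.77%. BLNK came nearest with -0.34 ± 0.09 (SE; adjusted P-value 0.0584), and under 6 of the other settings tried it passed, with adjusted P-values from 0.00356 to 0.0444. The estimate of BLNK under the LF diet was larger in size than that under the HF diet, -0.12 ± 0.09 (SE), but the test of the difference between both, the line × diet interaction, did not separate them (0.22 ± 0.12 (SE); P-value 0.0827, adjusted P-value 0.893). No gene of the 9 passed for the interaction, where 0% of all features did by limma and 0 of the 9 had an unadjusted P-value under 0.05, against 2.23% of all features.

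The diets made no detectable difference to the B cell identity genes after adjustment, as for all 26237 features (0% called). The estimates for HF minus LF ran from -0.28 to 0.11 with a median of 0.01, and 4 of the 9 were below 0. VPREB3 was the single gene with an unadjusted limma P-value under 0.05, as had 1.59% of all features (-0.28 ± 0.12 (SE); P-value 0.0211, adjusted P-value 0.999917). Its median was 3.92 in the 24 HF pigs and 4.36 in the 24 LF pigs, and 18 of the 24 HF pigs lay under the LF median. The analysis of variance of each gene alone likewise gave 0 calls among the 9.

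Set against CD79A within each pig, as the log2 value of a gene minus that of CD79A, MS4A1 was at 0.72 ± 0.22 (SD, n = 24) in low RFI pigs and 0.94 ± 0.27 (SD, n = 24) in high RFI pigs. In 16 of 24 low RFI pigs the value was below the median of the other line. The difference between the lines was -0.21 for MS4A1, -0.15 for FCRLA and between -0.09 and 0.20 for the other 6 genes. MS4A1 has the largest of the 9 line estimates and CD79A the smallest of the 8 below 0, so that the choice of genes favours a difference, and the values are given as a description without a test.

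The values of 8 of the 9 genes varied together from pig to pig. After the means of the 4 groups were removed, all 28 pairs that leave out PAX5 had a positive Pearson correlation over the 48 pigs, from 0.36 to 0.88 with a median of 0.56. All 28 had a Benjamini-Hochberg adjusted permutation P-value under 0.05 over the 36 pairs tested, for Pearson's r and for Spearman's rho. The chains CD79A and CD79B were the closest pair, with r = 0.88 and rho = 0.85 (permutation P-value 1e-05 for each, the smallest that 100000 permutations can give; adjusted 3.6e-05 and 4e-05), and r = 0.85 without the 2 pigs farthest from the CD79A median. CD79B and POU2AF1 followed with r = 0.81 and rho = 0.73 (permutation P-value 1e-05), and r = 0.75 without the 2 farthest pigs. The next were BLNK and POU2AF1, with r = 0.78 and rho = 0.65 (permutation P-value 1e-05), and r = 0.71 without the 2 farthest. For scale, pairs of retained spots that carry the same sequence had a median r of 0.89 over 1280 sequences, with a range from the 5th to the 95th percentile of 0.49 to 0.99, and the 2 VPREB3 spots of the same sequence had r = 0.98.

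MS4A1 and FCRLA, which had the largest estimates for line, followed the others less closely. Their correlations with the 7 other genes besides PAX5 ran from 0.36 to 0.59, and the pair itself gave r = 0.44 and rho = 0.44 (permutation P-values 0.00159 and 0.00223; adjusted 0.00233 and 0.00446), or r = 0.50 without the 2 farthest pigs. Against the mean of the standardised values of the other 8 genes, r was 0.55 for MS4A1 and 0.57 for FCRLA, whereas it was 0.88 for CD79A, 0.80 for CD79B, 0.76 for SPIB, 0.75 for POU2AF1, 0.70 for VPREB3 and 0.66 for BLNK. These values describe the order and were not tested against each other.

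The PAX5 probe followed the other genes less. Its 8 correlations ran from -0.47 with BLNK to 0.28 with SPIB, with a median of -0.07 and 2 of 8 above 0. With the brightness of the array, its median signal over local background, removed as well, they ran from -0.34 with BLNK to 0.45 with SPIB, with a median of 0.06 and 6 of 8 above 0, so that the sign of 4 of them turned. The negative relation with BLNK had an adjusted permutation P-value of 0.0011 (r = -0.47; rho = -0.41, adjusted 0.00686), and r was -0.40 without the 2 pigs farthest from the BLNK median. That with POU2AF1 was weaker (r = -0.29, adjusted permutation P-value 0.0486; rho = -0.22, adjusted 0.150; r = -0.15 without the 2 farthest pigs). The PAX5 probe lists a transcript accession in place of a gene name, and its name here rests on that accession in the RefSeq table.

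**Figure D3:**
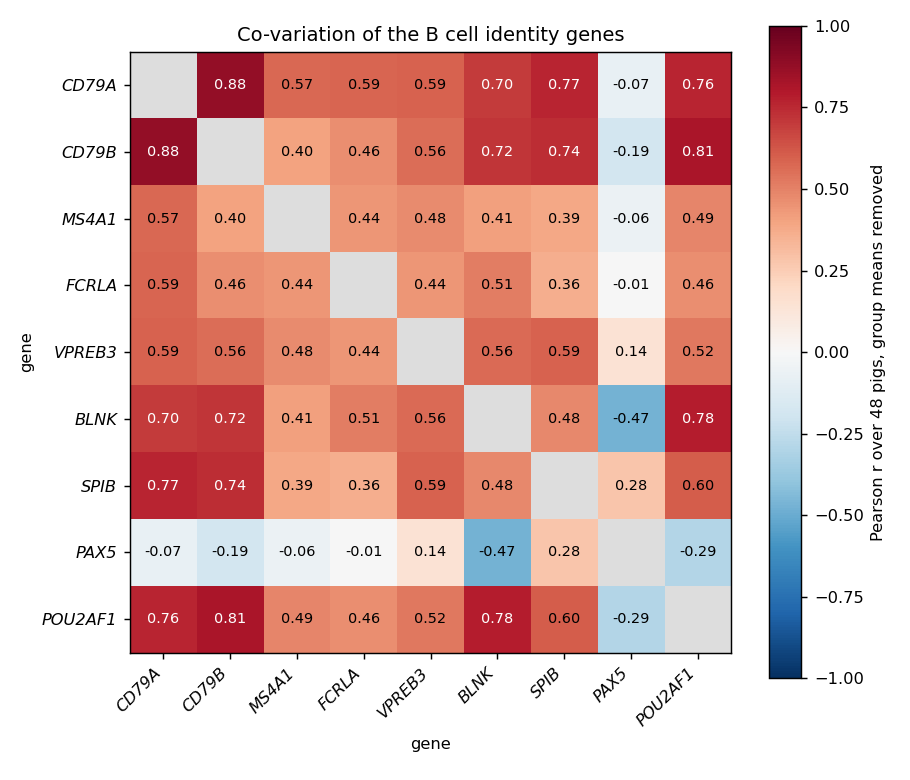
Pearson correlation of each pair of B cell identity genes over 48 pigs, with the means of the 4 groups removed. The 8 other genes form a positive block, from 0.36 to 0.88, and the PAX5 row holds values from -0.47 to 0.28.

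**Figure D4:**
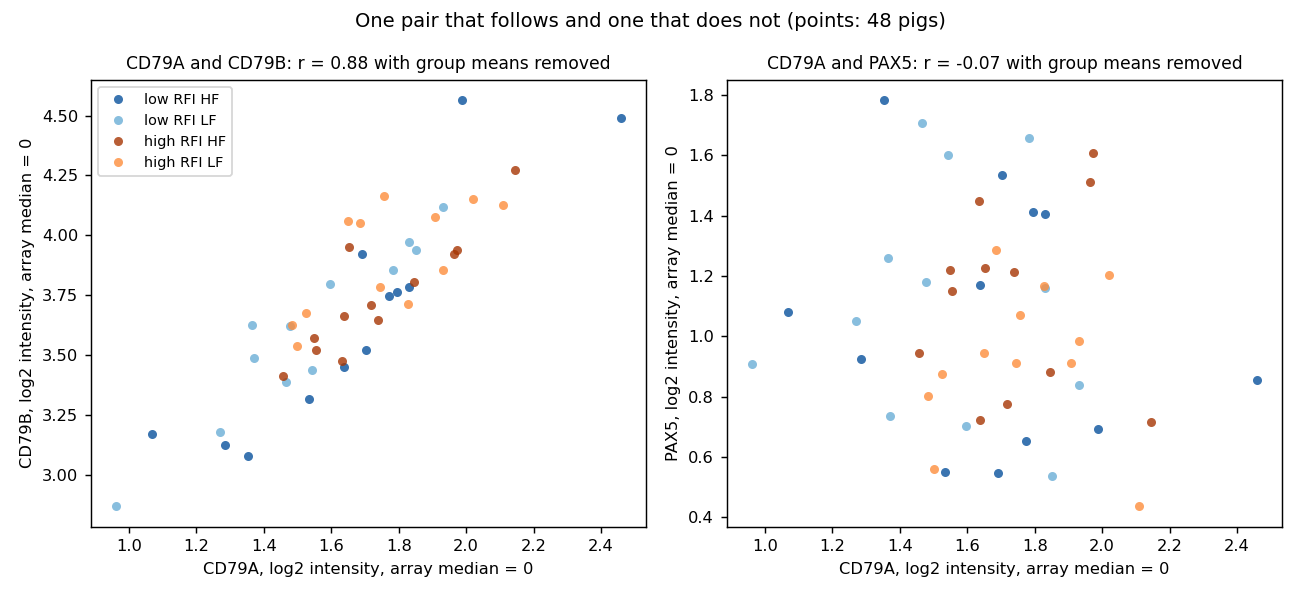
Log2 intensity, with the array median at 0, of CD79B against CD79A and of PAX5 against CD79A, with 1 point per pig and colours for the 4 groups. CD79B climbs with CD79A in all groups (r = 0.88 with group means removed), and PAX5 shows no such relation (r = -0.07).

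Within the groups of 12 pigs the strength of the co-variation varied. Over the 28 pairs without PAX5 the median r was 0.62 in low RFI HF, 0.74 in low RFI LF, 0.43 in high RFI HF and 0.39 in high RFI LF pigs. All 28 were positive in both low RFI groups and 25 in each high RFI group, and the difference between the lines was not tested. MS4A1 is in all 3 of the pairs below 0 in high RFI HF pigs and in 2 of the 3 in high RFI LF pigs. In high RFI HF pigs its r with the 7 genes other than PAX5 ran from -0.16 with SPIB to 0.32 with POU2AF1, and with CD79A it was 0.02. With the means of the 6 slides removed as well, the median over these pairs was 0.58 and all 28 stayed positive. The brightness of an array, as its median signal over local background, moved with some of the genes. Over the 9 relations tested, with group means removed, it correlated with CD79A (r = 0.52, rho = 0.55, adjusted permutation P-values 0.00108 and 0.00045; r = 0.50 without the 2 arrays farthest from the median) and with BLNK (r = 0.52, rho = 0.57, adjusted permutation P-values 0.00108 and 0.00036; r = 0.51 without the 2 farthest). CD79B (r = 0.46, rho = 0.51; adjusted permutation P-values 0.00297 and 0.00111) and POU2AF1 (r = 0.42, rho = 0.44; 0.00598 and 0.00351) followed it too, with r of 0.47 and 0.42 without the 2 farthest. It ran against PAX5 (r = -0.41, rho = -0.47, adjusted permutation P-values 0.00778 and 0.00166; r = -0.45 without the 2 farthest). With brightness removed too, the 28 pairs ranged from 0.32 to 0.84 with a median of 0.55, while the 8 pairs with PAX5 moved upward, as given above. With brightness as a covariate in the fit for line, a setting added after the values were seen, MS4A1, FCRLA and BLNK were called again.

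Of 9939 other genes with a symbol, the 10 that followed the mean of the 9 standardised genes most closely were taken, and 9 of them are named here. The highest r over the 48 pigs, with group means removed, was 0.89 for C1ORF170. Next came C6ORF145 with 0.80, the lipid transporter ABCA3 with 0.80, the mitochondrial protein CHCHD10 with 0.78, and TMEM163 with 0.78. SLA-DOA, the pig class II chain that regulates peptide loading in B cells, had 0.77, TLR1, a receptor for bacterial lipoproteins, had 0.76, SPAG1 had 0.76 and C16ORF74 had 0.74. The estimates of all 10 for line were below 0. SLA-DOA (-0.41 ± 0.09 (SE); limma adjusted P-value 0.00416), TMEM163 (-0.33 ± 0.09 (SE); 0.0180) and C16ORF74 (-0.30 ± 0.09 (SE); 0.0486) were underexpressed in low RFI pigs. C1ORF170, the closest of them, was at -0.28 ± 0.09 (SE) and did not pass (0.0715). The 10 shared the arrays with the members, and 20 genes in all had r above 0.7. With PAX5 left out of the mean, 8 of the 10 stayed among the closest 10, and TMEM163 had r = 0.72. TMEM163 was dim, with means of -1.82 in low RFI and -1.49 in high RFI pigs.

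Further genes of the B cell program were taken from lists of receptor signalling, transcription factors, survival and surface proteins, and antibody secretion. The counts below stand beside the 1.43% of all features called as lower. Of the 19 measured genes of receptor signalling 2 were underexpressed in low RFI pigs and none was overexpressed, with a median of -0.06. Among them was the inhibitory Fc receptor FCGR2B (-0.25 ± 0.07 (SE); limma adjusted P-value 0.0382), which monocytes express as well. The kinase SYK, which phosphorylates BLNK, had the largest estimate (-0.52 ± 0.17 (SE)) but an adjusted P-value of 0.106.

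Of the 15 measured transcription factors 2 were underexpressed and none overexpressed, but 9 of the 15 estimates were above 0 and the median was 0.06. EBF1, which acts with PAX5 in B cell commitment, was lower by limma (-0.30 ± 0.08 (SE); adjusted P-value 0.0185), and so was TCF4, which B cells share with plasmacytoid dendritic cells (-0.21 ± 0.05 (SE); 0.0187). BCL6, the factor of germinal centre B cells, which neutrophils also express, was at -0.32 ± 0.11 (SE; 0.137). ETS1, named after its values were seen, was at 0.14 ± 0.07 (SE; 0.417). Of the 18 survival and surface genes 4 were underexpressed and none overexpressed, with a median of -0.13. Among them were the costimulatory receptor CD40 (-0.33 ± 0.08 (SE); 0.0138), RALGPS2 (-0.26 ± 0.07 (SE); 0.0159) and the survival ligand TNFSF13B, made mainly by myeloid cells (-0.36 ± 0.10 (SE); 0.0405). CD40 and TNFSF13B are also in the study's lists from these pigs, as are SYK, BCL6, TLR1, SLA-DOA, CD14 and CXCR2 among the genes named here, so that their directions are not independent evidence.

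Of the 9 measured genes of antibody-secreting cells none passed the test, and their median was 0.08, with 1 estimate below 0. CD27 was at 0.22 ± 0.08 (SE; limma adjusted P-value 0.179), IGLL1 at 0.19 ± 0.10 (SE; 0.509) and XBP1, the factor of the secretory program, at 0.09 ± 0.05 (SE; 0.516). At an unadjusted P-value under 0.05, 1 of the 9 passed, against 11.5% of all features. CD27 is carried by T cells as well, and IGLL1 entered the list only through the first letters of its name.

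**Figure D5:**
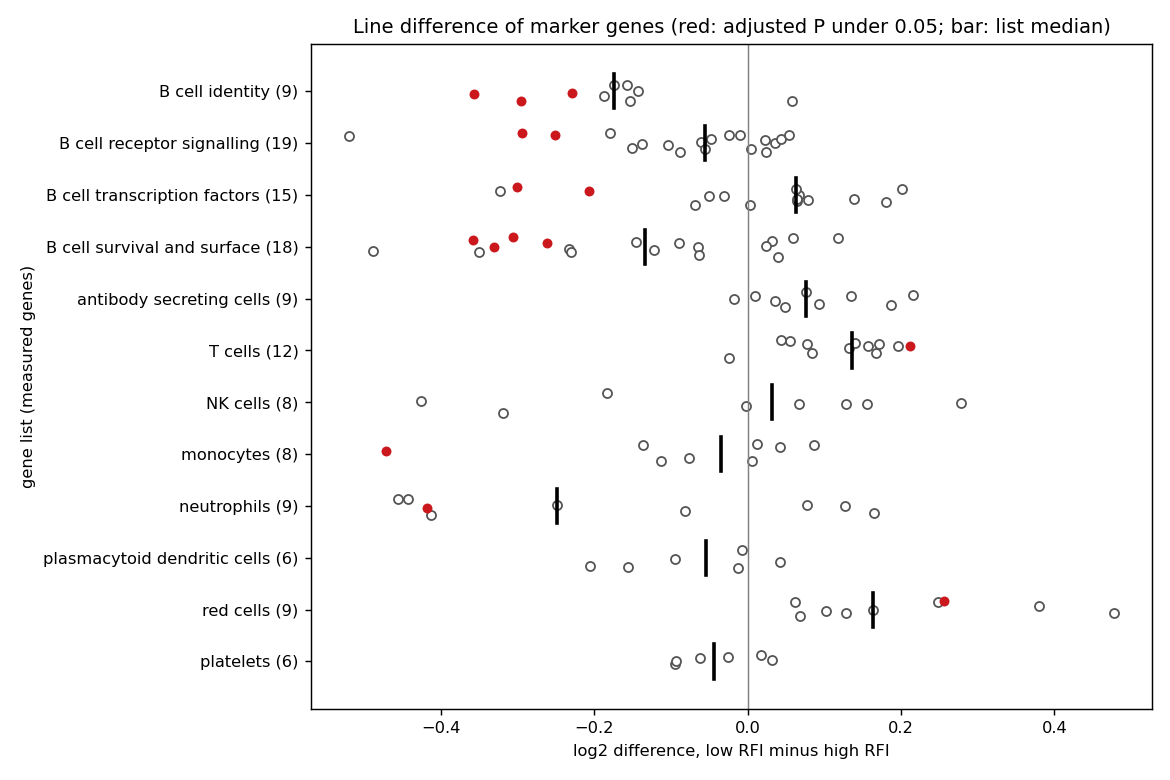
Log2 difference between low RFI and high RFI pigs for each measured gene of 12 marker lists, with the list median as a bar and genes at an adjusted P-value under 0.05 in red. The list medians run from -0.25 for neutrophils to 0.16 for red cells, with the B cell identity genes at -0.17.

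Of the markers of other blood cells, 1 gene each was called for line in the T cell, red cell, neutrophil and monocyte lists and none in the 3 others, and their part in the B cell result was not tested. Of 12 T cell genes 1 was called, LCK (0.21 ± 0.06 (SE); limma adjusted P-value 0.0408), and the median was 0.14, with 11 of 12 estimates above 0. CD247 and CD3E, subunits of the T cell receptor complex, had the probes with the highest signals of the list, which does not rank the transcripts, and were at 0.16 ± 0.10 (SE; 0.630) and 0.17 ± 0.08 (SE; 0.335). The mean level of the T cell list over its genes ranged from 1.18 to 1.72 in low RFI HF, from 1.30 to 1.69 in low RFI LF, from 1.14 to 1.63 in high RFI HF and from 1.07 to 2.03 in high RFI LF pigs. Of 9 red cell genes SLC4A1, the anion exchanger of the red cell membrane, was called as higher (0.26 ± 0.07 (SE); 0.0472), and all 9 estimates were above 0 with a median of 0.16. AHSP, a chaperone of hemoglobin alpha chains, and HBB, the hemoglobin beta chain, whose probes had the highest signals of the list, were at 0.10 ± 0.11 (SE; 0.913) and 0.07 ± 0.08 (SE; 0.930). The mean level of the red cell list ranged from 3.25 to 4.83 over the low RFI groups and from 2.65 to 4.72 over the high RFI groups. Of 9 neutrophil genes CXCR2, a receptor for chemokines, was called as lower (-0.42 ± 0.12 (SE); 0.0442), with a median of -0.25. Below 0 were 6 of the 9 estimates, and the highest was 0.17. FCGR3B was at -0.08 ± 0.09 (SE; 0.900). The mean level of the neutrophil list ranged from 2.27 to 4.51 in low RFI and from 2.79 to 4.74 in high RFI pigs.

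Of 8 monocyte genes CD14 was called as lower (-0.47 ± 0.13 (SE); limma adjusted P-value 0.0419), while LYZ was at -0.08 ± 0.17 (SE; 0.974), and the list median was -0.03. The list had 4 of 8 estimates below 0. Of 8 natural killer cell genes, 6 plasmacytoid dendritic cell genes and 6 platelet genes none was called, and 3, 2 and 0 of them had an unadjusted P-value under 0.05, as had 3 of the 12 T cell, 2 of the 9 red cell, 3 of the 9 neutrophil and 1 of the 8 monocyte genes, against 11.5% of all features. Their medians were 0.03, -0.05 and -0.04, and 4 of 8, 5 of 6 and 4 of 6 estimates were below 0. The 3 natural killer cell genes with an unadjusted P-value under 0.05, named after their values were seen, had both signs, with KLRB1 at -0.43 ± 0.16 (SE), NCR1 at -0.18 ± 0.09 (SE) and KLRK1 at 0.28 ± 0.12 (SE). The 2 such genes of plasmacytoid dendritic cells, also named after the values were seen, were LILRA4 (-0.21 ± 0.10 (SE)) and CCDC50 (-0.09 ± 0.04 (SE)). By the same rule on signal, the genes named were the granzyme GZMB (0.13 ± 0.18 (SE)) and NKG7 (0.16 ± 0.13 (SE)) of natural killer cells, IRF7 (-0.01 ± 0.13 (SE)) and TLR7 (-0.16 ± 0.18 (SE)) of plasmacytoid dendritic cells, and ITGB3 (-0.09 ± 0.08 (SE)) and PPBP (0.02 ± 0.14 (SE)) of platelets. Over the 48 pigs, with group means removed, the mean of the 9 B cell identity genes had r = 0.73 with the mean of the receptor signalling list, 0.54 with that of the transcription factors, 0.44 with that of the survival and surface genes and 0.29 with that of the antibody-secreting cells. For the lists of other cell types it lay between -0.37 for plasmacytoid dendritic cells and 0.18 for natural killer cells, with -0.13 for T cells and -0.01 for neutrophils. These values share the arrays and are given as a description.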

How the data were processed

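Scanner files and a table of log2 values were analysed for 48 pigs, with 1 array per pig. The authors deposited scanner output, with a spot intensity, a background and flags per spot, and a table of log2 values for 37113 retained spots. Tested on the files, the deposited log2 values of 47 arrays equal log2(median pixel intensity) less the median over the array, without background subtraction. The faulty column of 1 high RFI HF pig (replicate 1) was rebuilt in the same way. The submitters' processing notes name R 3.0.2, and per the methods the authors tested probes by analysis of variance, applied a Benjamini-Hochberg correction, and chose probes by the uncorrected P-value (below 0.01) with FC over 1.1 because no gene passed the correction for diet. The aligner or build behind the probe names is not given in the sources used here, so no coordinates are printed.

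Symbols came from the gene name of the scanner files (17142 probes), or else from a gene number (1862) or accession (412) in the RefSeq table of assembly Sscrofa11.1, and 17697 probes kept no symbol. IGHMBP2 and IGLON5, which start with the letters of immunoglobulin genes but are none, were left out of the list of antibody-secreting cells. A model of the 4 groups was fitted to all 26237 gene-level features, and to all probes, with limma 3.58.1 in R 4.3.3, and P-values were adjusted by Benjamini-Hochberg over all of them. The test was checked on simulated data. Each array is 1 pig, per the methods. Correlations were tested with 100000 permutations, two-sided. Python 3.11.15 was used with scipy 1.17.1, matplotlib 3.10.9, numpy 2.4.6 and pandas 2.3.3. Intensities carry no counts, and the number of arrays limits the precision. No non-control spot was saturated. 

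Named were the 9 genes; from the B cell lists every gene at an adjusted P-value under 0.05 for line and the 3 lowest P-values where fewer than 3 passed; from the lists of other cells the 2 most intense and any called; and the 10 genes most like the mean of the 9. Some genes that this rule names are not reported here. The members and lists were chosen with earlier results of these data known. Alternatives were the background-corrected signal, normexp with an offset of 50, slide or replicate number as a block, the column as deposited or left out, other sets of spots, the brightest probe, other priors and the threshold of the methods.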

Additional observations from a re-analysis of the deposited data

How the results depend on the processing

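The signs of the line differences of the 9 genes were the same under every alternative run, and MS4A1 was called for line under all of them. Of the 9 genes, 3 were called for line, and 1, MS4A1, with the brightest probe of a gene or with the faulty deposited values of replicate 1 of the high RFI HF group left in place. FCRLA (-0.30 with the brightest probe, -0.38 as deposited) and BLNK (-0.24 and -0.26) lost their calls there. Under the HF diet 1 gene was called, and 0 with all non-control spots or with the column as deposited. Under the LF diet 0 were called, and 1, BLNK, with the background-corrected signal at either scaling, with normexp and quantile normalization, with slide as a block, with the replicate block and with array brightness as a covariate, and 2 by the uncorrected criterion of the methods. Of the probes 3 were called for line, and 2, none of them of FCRLA, with all non-control spots. With the background-corrected signal at the median or with array brightness as a covariate 4 were called. The count was 7 with the background-corrected signal at the 75th percentile, with normexp, with either block or by the criterion of the methods. These 7 were the MS4A1 probe and all probes of FCRLA and BLNK. With the column as deposited the count was 1. Without high RFI HF replicate 1 the counts for line were 3 genes and 3 probes. The median difference of -0.17 and the median correlation of 0.49 moved by less than the spread between pigs or groups. The cause of these changes was not tested. Array brightness, symbols only and scanner names alone were settings chosen after seeing the data.

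Replicate numbers occur once in each group, and the 4 pigs of a number lie on 1 slide. Over the 72 pairs of pigs with the same number in 2 groups, their deviations from the group means correlated from -0.62 to 0.73, with a median of 0.18 and 43 pairs above 0.1. The 792 pairs with other numbers had a median of -0.02 and 305 above 0.1, and the 72 of these on the same slide a median of 0.09 and 33 above 0.1. Same-numbered pigs were thus somewhat more alike, but not every pair was above 0.1 and no source says what a number marks, so that the numbers were not taken to pair the pigs. The replicate block gave 3 genes and 7 probes for line, 1 gene for line under each diet, and 0 for diet or the interaction.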

Other observations

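The SD between pigs, pooled over the diets, had a larger value in the low RFI than in the high RFI line for all 9 B cell identity genes, a difference that passed the adjusted test for none. It was larger from 1.24 times for MS4A1 (0.27 against 0.22) to 1.81 times for CD79B (0.43 against 0.24), with a median ratio of 1.57. Under the HF diet alone the SD of MS4A1 was 0.24 in both lines. Over all 26237 features the SD was larger in low RFI pigs for 51.1%, with a median ratio of 1.01. The absolute deviations from the group median were compared between the lines with limma, a test chosen after the values were seen. No gene of the 9 passed after adjustment (0.0267% of all features did), and 3 of them, FCRLA (P-value 0.0101), CD79B (0.0234) and PAX5 (0.0385), had an unadjusted P-value under 0.05, against 3.91% of all features. Since 8 of the genes follow each other from pig to pig, their shared direction does not count as separate observations.

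The sequences of the probes O4144 of CD79A and O2565 of POU2AF1 each occur on a further retained spot that carries no gene name and was not used. For POU2AF1 both spots gave r = 0.95 over the 48 pigs with group means removed. For CD79A they gave r = 0.19, which rested on 1 pig, high RFI LF replicate 1. There the unnamed spot had an intensity of 25.0, while it ranged from 767 to 3078 on the other 47 arrays and the named spot read 1712.5. Without that pig r was 0.89.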
